A study of Mus musculus with 6 samples.

Results

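Axon guidance ligands and receptors were followed in mouse epidermal cells as a set of 52 genes, chosen by symbol from 4 families: Slit and Robo, semaphorins with plexins and neuropilins, ephrins with Eph receptors, and netrins with their receptors. All 52 were found by Ensembl identifier among the 38924 genes of the count table, and 50 passed the filter on low counts. The cells were epidermal cells purified as positive for CD49f, an integrin on the surface of basal keratinocytes. The 3 K14-Cre-positive samples carried Rnaseh2b flox/flox and the Cre recombinase, expressed in keratinocytes from the keratin 14 promoter. The 3 K14-Cre-negative samples carried Rnaseh2b flox/flox without Cre, so the floxed allele was common to both groups. Rnaseh2b codes for part of RNase H2, which cuts ribonucleotides out of DNA. The keratin 14 promoter does not target melanocytes, immune cells or dermal cells, which purified cells can also include. Mouse age, and whether each replicate was a separate animal, are not stated in the labels, so a p-value reflects spread among samples that may partly be technical.

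Guidance genes are named for their part in steering growing axons, but most act between many kinds of neighbouring cells. Slits are secreted proteins that repel cells through Robo receptors. Semaphorins signal through plexins, with neuropilins as partners for most secreted class 3 semaphorins. Ephrins are tethered to the membrane and signal to Eph receptor tyrosine kinases on the next cell, a system known in epidermis for its part in cell contacts and differentiation. Netrins are laminin-related secreted proteins whose receptors include neogenin and the Unc5 family.

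Library totals ran from 23186065 to 31718094 counts in Cre-positive and from 22948779 to 25362538 counts in Cre-negative samples. Rnaseh2b had 172, 90 and 69 counts in Cre-positive against 543, 504 and 570 counts in Cre-negative libraries, a fall of 2.34 on the log2 scale (SE 0.17, adjusted p = 0.0102 in edgeR), counted over the whole gene and not the deleted part alone. The summed level of 8 basal keratinocyte markers was 17071 to 19299 counts-per-million (CPM) in Cre-positive and 17309 to 19640 CPM in Cre-negative libraries, with overlapping groups. Within that list Krt15 was lower (log2 fold change -0.92 ± 0.15 SE) and Itgb4 higher (0.50 ± 0.10 SE), each without overlap. Neither passed edgeR (adjusted p = 0.0572 and 0.0865), while the Wald test of DESeq2 called both. Cre-positive replicate 3 stood apart from its group. Its chi-square per degree of freedom against the other Cre-positive libraries was 63.7 and 45.6, while the other pairs within groups gave 8.7 to 13.7. It was the highest or the lowest Cre-positive library for 42 of the 50 tested guidance genes, and for 80.7% of all tested genes. Counts that rest on it are given with and without it below.

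By the quasi-likelihood test of edgeR, adjusted over 15525 genes, 1 of the 50 tested guidance genes rose in Cre-positive cells, 0 fell and 49 did not pass the threshold of 0.05. The gene that rose was Slit1. Over all tested genes the share called was 0.515%, with 0.406% higher and 0.110% lower. At an unadjusted p under 0.05 there were 7 guidance genes higher and 7 lower, together 28% of the 50. Among all genes 10.3% were higher and 8.48% lower, together 18.8%. The 3 Cre-positive and 3 Cre-negative values did not overlap for 8 genes that were higher and 11 that were lower, together 38% of the 50. Among all genes 14.1% were higher and 13.8% lower, together 28.0%. The median log2 fold change of the 50, Cre-positive minus Cre-negative, was -0.04, and that of all genes was -0.00478. Without Cre-positive replicate 3, 3 guidance genes were called, Slit1 and Plxnc1 higher and Sema3f lower, while the share over all genes was then 2.65%.

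**Figure D1:**
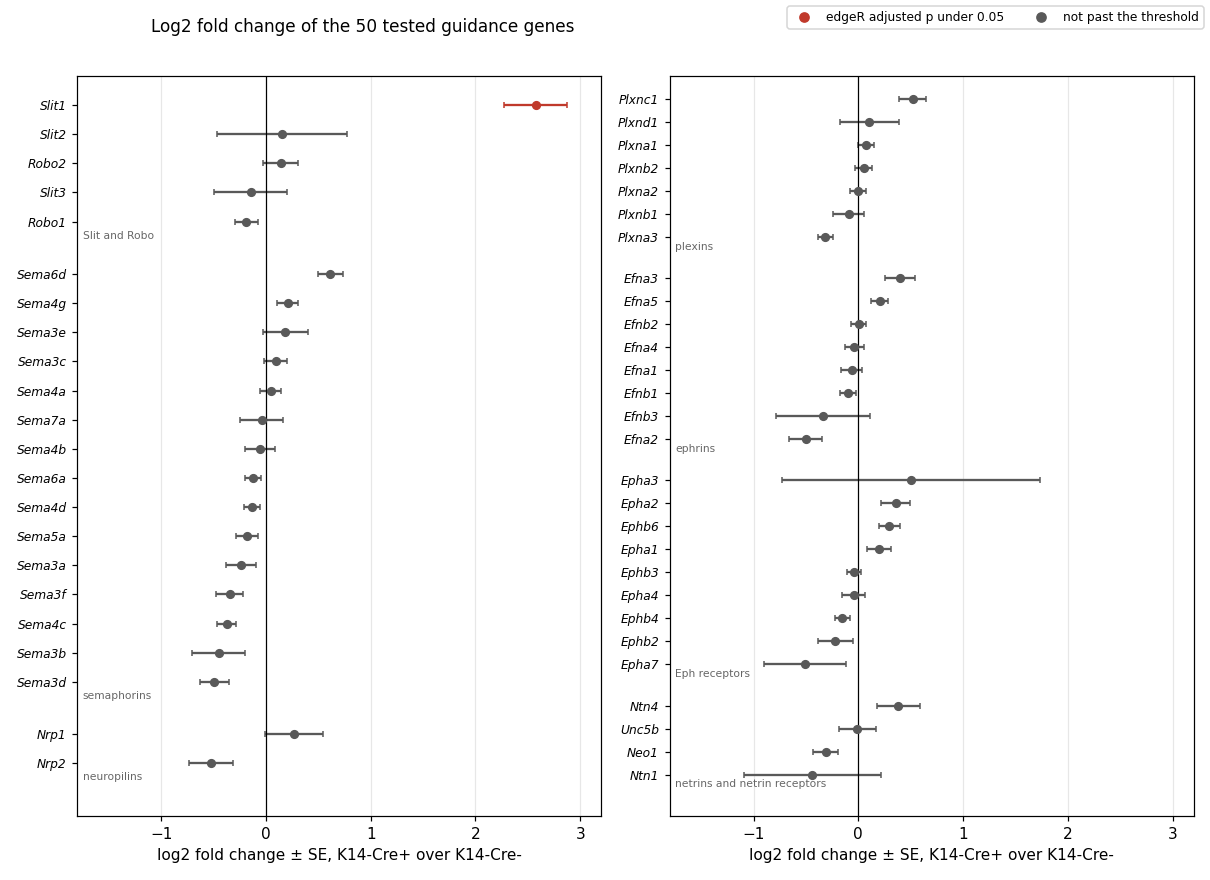
Log2 fold change (Cre-positive over Cre-negative, horizontal axis) of the 50 tested guidance genes by family, each with a standard error derived from the edgeR test. Slit1, in red, lies at 2.57 and is past the threshold of 0.05, while the other 49 genes, in grey, lie between -0.53 and 0.61.

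The families differed widely in level, which is compared between genes as CPM per kilobase (kb) of counted exon, averaged over the 6 libraries. Of the 52 genes, 22 had at least 10 CPM per kb and 8 were under 1 CPM per kb. The Eph receptor Ephb6, whose kinase domain is inactive, had the highest mean at 70.4 CPM per kb, with libraries from 60.5 to 86.8. Epha1, an Eph receptor of epithelia, had 64.9 CPM per kb, and the ephrin Efna3 had 58.6, and the ranges over libraries of these 3 overlapped. Sema3f was the leading semaphorin at 49.2 CPM per kb, and Plxnb2 the leading plexin at 43.2, and their ranges over libraries overlapped as well. Efna1, Efnb1, Ephb4, Efnb2 and Plxna1 followed between 38.7 and 25.8 CPM per kb. Robo1 was the leading Robo at 21.9 CPM per kb, and neogenin (Neo1) the leading netrin receptor at 17.4. The Slit ligands were far lower, with 1.47 CPM per kb for Slit3, 0.365 for Slit1 and 0.216 for Slit2. Sema4f and Plxnb3 had 0.0744 and 0.0307 CPM per kb, and these 2 were the genes below the count filter. Sema4f had 22, 9 and 5 counts in Cre-positive against 8, 4 and 13 counts in Cre-negative libraries. Plxnb3 had 8, 5 and 2 counts in Cre-positive against 4, 6 and 6 counts in Cre-negative libraries.

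**Figure D2:**
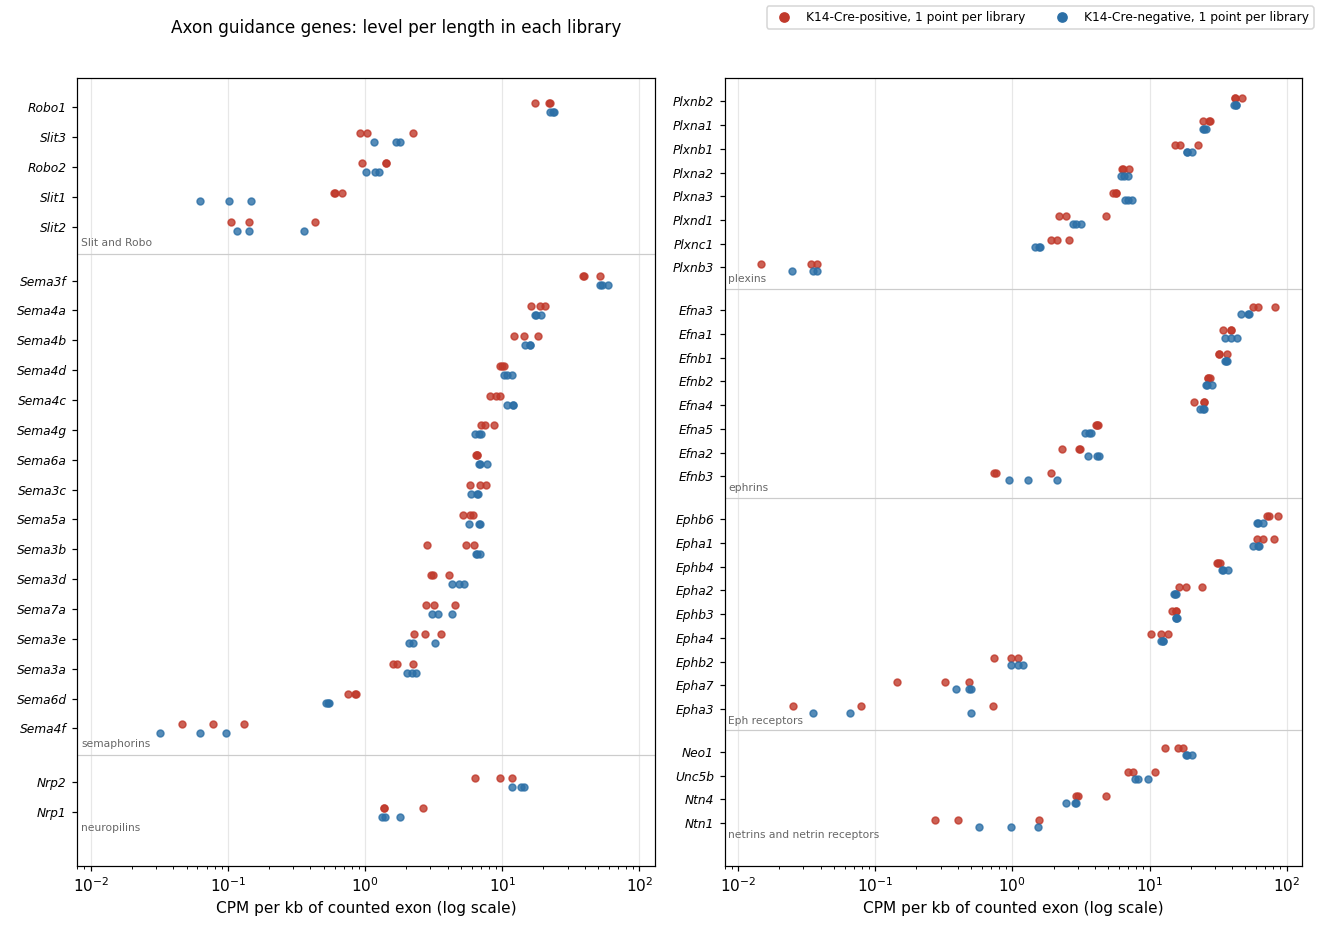
Level of the 52 guidance genes in each library, as CPM per kb of counted exon on a log axis, by family, with Cre-positive points above Cre-negative points in each row. Ephb6 has the highest mean at 70.4 CPM per kb and Plxnb3 the lowest at 0.0307, and Slit1 shows a gap between the groups.

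Slit1 (ENSMUSG00000025020) encodes 1 of the secreted Slit ligands and lies on chromosome 19 of mm10 from 41600257 to 41743665 on the minus strand, with 36 blocks of counted exon. It had 114, 81 and 85 counts in Cre-positive against 15, 9 and 23 counts in Cre-negative libraries. That is 3.50, 3.58 and 4.04 CPM in Cre-positive against 0.602, 0.370 and 0.875 CPM in Cre-negative libraries. Every Cre-positive library lay above every Cre-negative one, and the 3 Cre-positive values were close together. The mean was 3.71 ± 0.289 CPM in Cre-positive and 0.616 ± 0.253 CPM in Cre-negative libraries (SD, n = 3 each). The fitted difference was 5.95-fold, or 2.57 ± 0.30 SE on the log2 scale, with an adjusted p of 0.0293 in edgeR. Even so its level per length stayed low, at 0.626 CPM per kb in Cre-positive and 0.104 CPM per kb in Cre-negative libraries. Averaged over all 6 it ranked 48th of the 52 genes. Leaving out 1 library at a time kept the log2 fold change between 2.32 and 2.92. In edgeR the call held when Cre-positive replicate 3 was left out (adjusted p = 0.0147). It was lost on dropping Cre-positive replicate 1 or 2, where edgeR gave an adjusted p of 0.0569 or 0.117, and on dropping Cre-negative replicate 1, 2 or 3, where edgeR gave 0.215, 0.124 or 0.103.

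Slit2 and Slit3 did not pass the threshold. Slit2, which has the same receptors, had 6.52, 1.59 and 2.14 CPM in Cre-positive against 2.17, 1.77 and 5.40 CPM in Cre-negative libraries (log2 fold change 0.15 ± 0.62 SE, with adjusted p = 0.917 in edgeR). Slit3 had 13.5, 5.53 and 6.27 CPM in Cre-positive against 7.10, 10.2 and 10.9 CPM in Cre-negative libraries (log2 fold change -0.15 ± 0.35 SE). For both, the groups overlapped, and replicate 1 was the highest Cre-positive and replicate 3 the highest Cre-negative library. The difference between Slit1 and the other Slits was not tested.

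Among the Slit receptors, Robo1 had 165, 168 and 130 CPM in Cre-positive against 170, 182 and 177 CPM in Cre-negative libraries. All 3 Cre-positive values lay below the Cre-negative ones, but Cre-positive replicate 3 stood well under the rest, and the difference did not pass (log2 fold change -0.19 ± 0.11 SE, with adjusted p = 0.387 in edgeR). Robo2 had 23.5, 15.8 and 23.7 CPM in Cre-positive against 16.8, 19.5 and 20.9 CPM in Cre-negative libraries, with overlapping groups. Robo3, a Robo known from axons that cross the midline, is not 1 of the 52 genes and comes from the list of other guidance genes. It had 40, 35 and 12 counts in Cre-positive against 2, 1 and 5 counts in Cre-negative libraries, and the groups did not overlap. Summed over libraries, its 87 Cre-positive and 8 Cre-negative counts gave a depth-corrected ratio of 10.8, with an exact binomial 95% interval from 5.24 to 25.8 that covers counting error only. Robo3 missed the threshold (log2 fold change 3.35 ± 0.58 SE, with adjusted p = 0.0711 in edgeR). It passed without Cre-positive replicate 3 (adjusted p = 0.0187 in edgeR) and without the filter on low counts (adjusted p = 0.0413 in edgeR). It did not pass limma-voom (adjusted p = 0.077), or edgeR with total count scaling or a sex covariate (both 0.101). Leaving out any other library gave 0.102 to 0.321 in edgeR, and DESeq2 gave no adjusted p. Robo3 lies on chromosome 9 of mm10 from 37415669 to 37433163 on the minus strand.

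Markers of nerve-associated and pigment cells were followed beside Slit1 and Robo3. The summed level of 8 Schwann cell and neuron markers was 56.6, 54.3 and 76.5 CPM in Cre-positive against 45.4, 53.7 and 53.9 CPM in Cre-negative libraries, with Mbp, a myelin gene, the most abundant. That of 7 melanocyte markers was 751, 755 and 650 CPM in Cre-positive against 366, 426 and 385 CPM in Cre-negative libraries, with Dct, a melanin synthesis gene, the most abundant. Of these markers 6 rose in edgeR, which called 0.406% of all genes higher. The melanocyte sums were well apart. Those of the Schwann cell and neuron list nearly met, and none of its 8 markers passed edgeR or limma-voom. In that list 1 marker, Cdh19, was higher without overlap between the groups, as 14.1% of all genes were. Their part in the values of Slit1 and Robo3 was not tested. In bulk samples fewer cells of a type and less RNA per cell cannot be told apart.

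**Figure D3:**
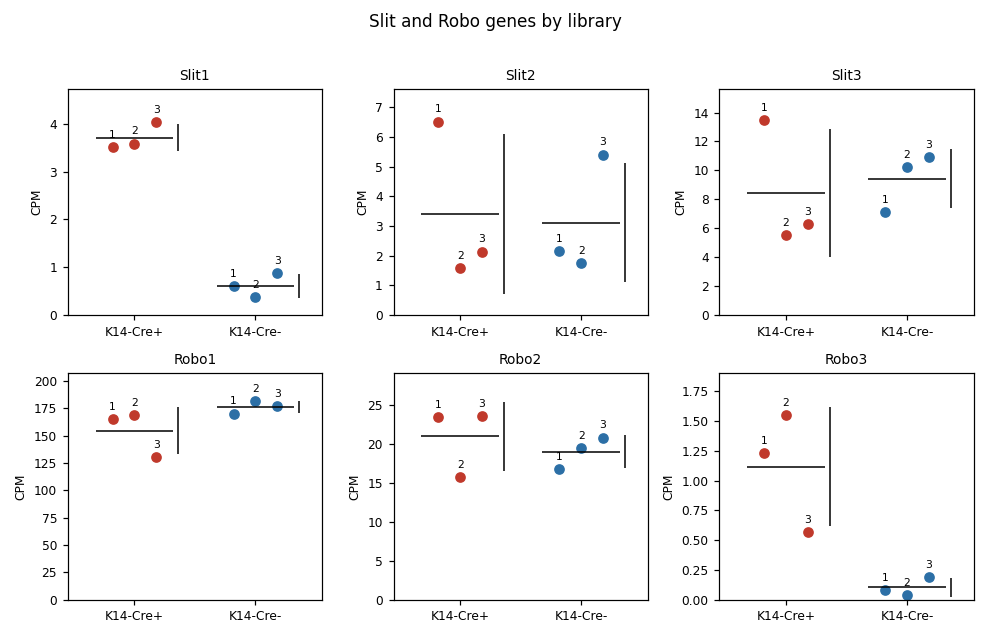
CPM of the Slit and Robo genes by library (vertical axis from 0), Cre-positive on the left, with replicate numbers, the mean as a bar and ± 1 SD beside it. Slit1 and Robo3 have no overlap between the groups with the higher values in Cre-positive libraries, whereas Slit2, Slit3 and Robo2 overlap.

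None of the 15 tested semaphorins, 7 tested plexins or 2 neuropilins passed edgeR or limma-voom, and limma-voom called 0.425% of all genes. An unadjusted edgeR p under 0.05 was reached by 4 semaphorins, 2 plexins and 1 neuropilin, and by 18.8% of all genes. The Wald test of DESeq2 called 4 of them, Sema6d and Plxnc1 higher and Sema4c and Plxna3 lower. Over all genes with an adjusted p, DESeq2 called 3.99% higher and 2.06% lower. Together with Slit1 it called 5 of the 52 guidance genes. Promoter sequences of those 4 are shown because they are the genes besides Slit1 that pass that test. They are from RefSeq on the build GRCm38.p6, which is mm10, where 45 of the 52 genes have an entry. Slit1, Sema3b, Sema3f, Sema6a, Plxna1, Efnb3 and Ntn1 have none.

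The 250 bases before the most upstream start of each gene lie at chr2:124089719-124089968 on the plus strand for Sema6d and at chr10:94944846-94945095 on the minus strand for Plxnc1. Those of Sema4c lie at chr1:36558382-36558631 on the minus strand, and those of Plxna3 at chrX:74328816-74329065 on the plus strand. Each is given 5′ to 3′ on the strand of the gene. Capitals mark matches on either strand to the GC box GGGCGG. They also mark matches to the AP-1 site TGANTCA and, where present, the E-box motif, spelled CACGTG. Searches for the box CCAAT and for TATAAA gave no match in these windows, and none of these motifs contains another. The p53 half-site, searched on both strands as well, is not marked in capitals.
Sema6d: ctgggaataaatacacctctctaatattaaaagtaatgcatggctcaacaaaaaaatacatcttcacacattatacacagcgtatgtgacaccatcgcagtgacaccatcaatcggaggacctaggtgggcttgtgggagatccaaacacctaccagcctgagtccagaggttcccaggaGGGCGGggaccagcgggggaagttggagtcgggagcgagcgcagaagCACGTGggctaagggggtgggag
Plxnc1: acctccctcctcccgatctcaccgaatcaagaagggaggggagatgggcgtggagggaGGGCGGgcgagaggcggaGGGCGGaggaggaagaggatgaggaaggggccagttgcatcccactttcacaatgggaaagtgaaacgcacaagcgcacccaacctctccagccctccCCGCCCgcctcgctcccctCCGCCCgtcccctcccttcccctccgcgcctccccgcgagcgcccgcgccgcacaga
Sema4c: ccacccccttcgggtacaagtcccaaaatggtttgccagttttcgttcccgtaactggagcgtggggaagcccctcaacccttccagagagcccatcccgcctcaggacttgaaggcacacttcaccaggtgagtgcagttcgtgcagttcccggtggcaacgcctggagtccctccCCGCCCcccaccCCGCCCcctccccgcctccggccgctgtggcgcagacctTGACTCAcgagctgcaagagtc
Plxna3: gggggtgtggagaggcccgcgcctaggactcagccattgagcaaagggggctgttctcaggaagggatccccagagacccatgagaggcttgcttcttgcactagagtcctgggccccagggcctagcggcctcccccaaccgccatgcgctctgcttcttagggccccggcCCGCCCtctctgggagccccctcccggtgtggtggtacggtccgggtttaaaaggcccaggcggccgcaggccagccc
All 4 windows hold a GC box, and Sema6d also holds an E-box, Sema4c an AP-1 site and Plxna3 a p53 half-site. They contain 9, 22, 15 and 12 CpG dinucleotides in the order given. A GC box stood in 43 of the 59 promoters of guidance genes (72.9%) and in 32.7% of all 32851 promoters of this length. An AP-1 site stood in 3.39% and an E-box in 5.08% of guidance gene promoters, against 6.75% and 6.02% of all promoters. A p53 half-site stood in 6.78% of guidance gene promoters and in 7.13% of all promoters. The median GC content was 64.8% for guidance genes and 52.4% for all promoters. A match in these letters is a description of the window and not a binding site.

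Sema6d, a transmembrane semaphorin that binds A-type plexins, had 9.04, 7.88 and 8.98 CPM in Cre-positive against 5.45, 5.79 and 5.67 CPM in Cre-negative libraries. The groups were well apart and tight within themselves (log2 fold change 0.61 ± 0.12 SE). It missed the threshold of edgeR (adjusted p = 0.0815) and passed that of DESeq2 (adjusted p = 0.00707). Without any 1 library its log2 fold change stayed between 0.58 and 0.67.

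Plxnc1, the receptor of Sema7a, had 20.4, 16.6 and 14.9 CPM in Cre-positive against 12.6, 12.3 and 11.4 CPM in Cre-negative libraries, with no overlap and the highest value in Cre-positive replicate 1. The difference was 0.52 ± 0.13 SE on the log2 scale, with an adjusted p of 0.130 in edgeR and 0.0292 in DESeq2. Without Cre-positive replicate 3 it was 0.61, with an adjusted p of 0.0424 in edgeR. The melanocyte marker sum given above was also higher in every Cre-positive library, and its part in the Plxnc1 values was not tested. Its ligand gene Sema7a had 10.5, 9.21 and 14.9 CPM in Cre-positive against 11.2, 14.2 and 10.1 CPM in Cre-negative libraries, which overlapped.

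Sema4c, a transmembrane semaphorin that signals through Plxnb2, had 44.3, 41.6 and 37.3 CPM in Cre-positive against 55.4, 49.6 and 54.96 CPM in Cre-negative libraries. The Cre-positive values were all lower (log2 fold change -0.37 ± 0.09 SE, with adjusted p = 0.119 in edgeR and 0.0262 in DESeq2). Its receptor gene Plxnb2 had 301, 299 and 339 CPM in Cre-positive against 306, 296 and 305 CPM in Cre-negative libraries, which overlapped. Plxna3, a receptor for class 3 semaphorins, had 45.1, 42.9 and 45.2 CPM in Cre-positive against 59.0, 54.5 and 52.3 CPM in Cre-negative libraries, again lower in all 3 (log2 fold change -0.32 ± 0.07 SE, with adjusted p = 0.116 in edgeR and 0.0372 in DESeq2).

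Of the 6 class 3 semaphorins in the set, which are secreted, 4 had negative log2 fold changes, as 7917 of all 15525 tested genes had. The median of the 6 was -0.29 against -0.00478 over all genes. Sema3g, a class 3 semaphorin in the list of other guidance genes, is not among the 6. Its groups overlapped (log2 fold change -0.70 ± 0.28 SE, with adjusted p = 0.245 in edgeR). The summed level of 7 hair follicle markers, led by the keratin gene Krt17, was 2070, 2140 and 1532 CPM in Cre-positive against 2692, 2649 and 2657 CPM in Cre-negative libraries. That sum was lower in all 3 Cre-positive libraries and lowest in replicate 3, as Nrp2 and Sema3b were, and its part in the values of these genes was not tested. Of the 7 markers 4 were lower without overlap, as 13.8% of all genes were. Lgr5, Lhx2 and Cd34 overlapped, and Cd34 had a positive log2 fold change (0.52 ± 1.02 SE). Sema3f, the repellent ligand of Nrp2, had 132, 134 and 175 CPM in Cre-positive against 202, 177 and 182 CPM in Cre-negative libraries. Cre-positive replicate 3 lay just below the lowest Cre-negative value, and the others lay further down (log2 fold change -0.35 ± 0.13 SE, with adjusted p = 0.219 in edgeR). Without that library the log2 fold change was -0.49 (adjusted p = 0.0273 in edgeR). Nrp2 itself had 111, 91.2 and 60.2 CPM in Cre-positive against 113, 137 and 130 CPM in Cre-negative libraries. There the same library was the lowest of all 6 (log2 fold change -0.53 ± 0.21 SE, with adjusted p = 0.241 in edgeR), and without it the log2 fold change was -0.32 (adjusted p = 0.188 in edgeR).

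Sema3d had 26.7, 20.3 and 19.8 CPM in Cre-positive against 34.5, 31.5 and 28.3 CPM in Cre-negative libraries, without overlap (log2 fold change -0.49 ± 0.14 SE, with adjusted p = 0.154 in edgeR). Sema3b, which is known as a p53 target in human cells, had 23.3, 26.4 and 12.1 CPM in Cre-positive against 27.8, 29.4 and 27.5 CPM in Cre-negative libraries. Its Cre-positive values were all below the Cre-negative ones, by little in replicates 1 and 2 and by more in replicate 3 (log2 fold change -0.45 ± 0.25 SE), and without replicate 3 the log2 fold change was -0.19. Sema3a, a ligand of Nrp1, differed by -0.24 ± 0.14 SE on the log2 scale, and Sema3c and Sema3e had 0.09 and 0.19 with overlapping groups. Plxnd1, the receptor of Sema3e, had 34.6, 17.8 and 15.7 CPM in Cre-positive against 20.9, 19.9 and 22.9 CPM in Cre-negative libraries, a spread of 2.2 times among Cre-positive libraries.

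**Figure D4:**
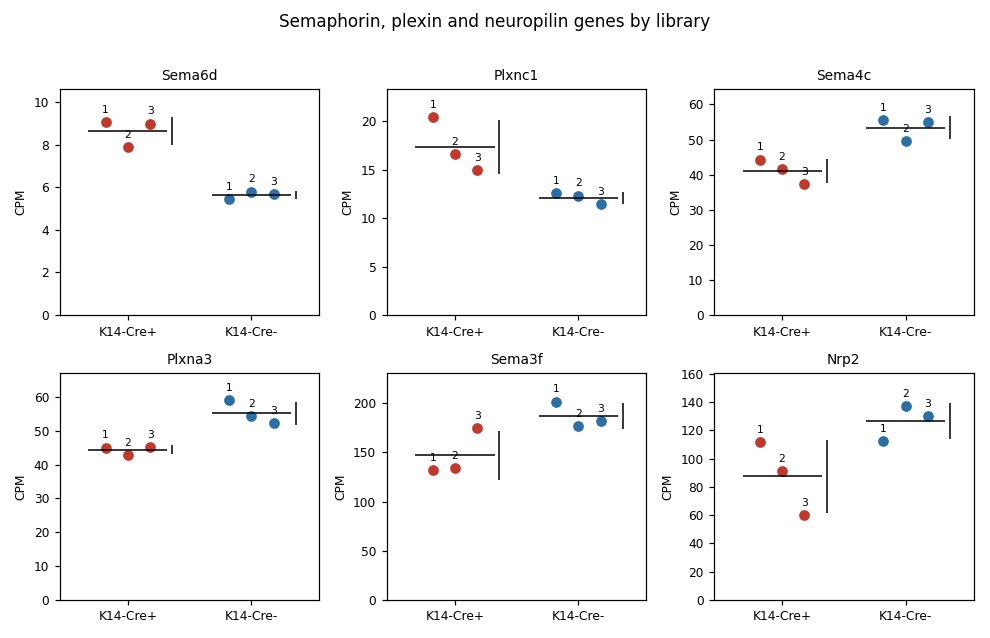
CPM of 6 semaphorin, plexin and neuropilin genes by library (vertical axis from 0), Cre-positive on the left, with replicate numbers, the mean as a bar and ± 1 SD beside it. Sema6d and Plxnc1 are higher and Sema4c, Plxna3, Sema3f and Nrp2 lower in all 3 Cre-positive libraries, and none passed the threshold of edgeR.

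The remaining transmembrane and membrane-anchored semaphorins also did not pass. Sema6a, a ligand of A-type plexins, had 57.4, 56.4 and 58.0 CPM in Cre-positive against 60.0, 68.3 and 59.1 CPM in Cre-negative libraries, just without overlap. Sema4a, Sema4b, Sema4d, Sema4g and Sema5a had log2 fold changes from -0.18 to 0.21, with overlapping groups. Sema4d had 62.7, 64.0 and 66.8 CPM in Cre-positive against 75.8, 66.2 and 70.3 CPM in Cre-negative libraries (log2 fold change -0.13 ± 0.08 SE). Its receptor gene Plxnb1 had 150, 137 and 202 CPM in Cre-positive against 184, 169 and 168 CPM in Cre-negative libraries. Plxna1 and Plxna2, which pair with neuropilins, differed by 0.07 and -0.00345 on the log2 scale, each ± 0.08 SE.

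None of the 8 ephrins or 9 Eph receptors passed edgeR, DESeq2 or limma-voom, with 3 ephrins and 2 receptors at an unadjusted p under 0.05, which 18.8% of all genes reached. Efna3, the most abundant ephrin per length, had 137, 151 and 199 CPM in Cre-positive against 127, 129 and 113 CPM in Cre-negative libraries. All Cre-positive values were higher, with replicate 3 far above the rest (log2 fold change 0.40 ± 0.14 SE, with adjusted p = 0.215 in edgeR), and without that library the log2 fold change was 0.23. Efna5 had 16.3, 16.8 and 16.9 CPM in Cre-positive against 13.8, 15.03 and 14.7 CPM in Cre-negative libraries, a small difference without overlap (log2 fold change 0.20 ± 0.08 SE). Efna2 had 6.58, 6.59 and 4.89 CPM in Cre-positive against 7.62, 8.87 and 9.17 CPM in Cre-negative libraries, lower in all 3 (log2 fold change -0.50 ± 0.16 SE, with adjusted p = 0.182 in edgeR).

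The B-type ephrins, which span the membrane, gave no separation between groups. Efnb2 had 115, 115 and 119 CPM in Cre-positive against 113, 124 and 112 CPM in Cre-negative libraries (log2 fold change 0.00397 ± 0.07 SE). Efnb1 had 111, 112 and 126 CPM in Cre-positive against 122, 124 and 126 CPM in Cre-negative libraries. Efna1 and Efna4 differed by -0.06 ± 0.10 SE and -0.04 ± 0.09 SE on the log2 scale. On the opposite strand 4731419I09Rik covers 10.5% of the exon length of Efna4.

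Among the most abundant Eph receptors, Epha2, Ephb6 and Epha1 had their highest value in Cre-positive replicate 3, as Efna3 did. Ephb4, also abundant, had its lowest Cre-positive value there. Replicate 3 was the highest Cre-positive library for 26 of the tested guidance genes and the lowest for 16. A peak there among Cre-positive libraries is therefore not particular to these genes. Epha2, an EphA receptor of keratinocytes and a known p53 target in human cells, had 76.1, 86.9 and 112 CPM in Cre-positive against 70.4, 71.4 and 72.9 CPM in Cre-negative libraries. The difference was 0.36 ± 0.14 SE on the log2 scale (adjusted p = 0.233 in edgeR), and 0.19 without that library. Ephb6 had 269, 281 and 327 CPM in Cre-positive against 232, 255 and 228 CPM in Cre-negative libraries (log2 fold change 0.30 ± 0.10 SE, with adjusted p = 0.199 in edgeR), and 0.21 without it. Epha1 had 200, 218 and 263 CPM in Cre-positive against 204, 203 and 186 CPM in Cre-negative libraries, which overlapped. The summed level of 6 markers of suprabasal keratinocytes was 104155, 125087 and 140897 CPM in Cre-positive against 104867, 82963 and 99382 CPM in Cre-negative libraries, likewise highest in Cre-positive replicate 3, and its part in these values was not tested.

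Ephb4, a receptor of Efnb2, had 150, 147 and 144 CPM in Cre-positive against 158, 159 and 174 CPM in Cre-negative libraries, lower in all 3 (log2 fold change -0.15 ± 0.07 SE, with adjusted p = 0.304 in edgeR). Ephb3 varied little, with 92.0, 98.4 and 98.4 CPM in Cre-positive against 98.8, 100 and 98.4 CPM in Cre-negative libraries. Epha4, which binds ephrins of both types, had 87.0, 76.9 and 64.5 CPM in Cre-positive against 79.3, 79.5 and 77.0 CPM in Cre-negative libraries. Ephb2 and Epha7 differed by -0.22 ± 0.17 SE and -0.51 ± 0.39 SE on the log2 scale, with overlapping groups.

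None of the 4 netrin genes passed edgeR, DESeq2 or limma-voom, and 1 had an unadjusted p under 0.05, as 18.8% of all genes did. That gene was Neo1, which encodes neogenin, a receptor of netrins and of repulsive guidance molecules. It had 129, 120 and 95.5 CPM in Cre-positive against 137, 151 and 139 CPM in Cre-negative libraries, lower in all 3 (log2 fold change -0.31 ± 0.12 SE, with adjusted p = 0.232 in edgeR). Rgma, a repulsive guidance molecule that binds neogenin and is in the list of other guidance genes, had 132, 133 and 144 CPM in Cre-positive against 171, 177 and 168 CPM in Cre-negative libraries. The Rgma values were well apart and lower in Cre-positive (log2 fold change -0.34 ± 0.07 SE, with adjusted p = 0.0971 in edgeR and 0.00346 in DESeq2). Rgma passed edgeR without Cre-positive replicate 3 (adjusted p = 0.0300), a fit that called 2.65% of all genes. Leaving out any other library gave an adjusted p from 0.125 to 0.344 in edgeR. On the opposite strand A730056A06Rik covers 5.82% of the exon length of Rgma.

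Unc5b, a netrin receptor and known p53 target in human cells, had 44.0, 41.1 and 64.4 CPM in Cre-positive against 45.8, 56.6 and 47.9 CPM in Cre-negative libraries, which overlapped (log2 fold change -0.00863 ± 0.18 SE). Ntn4, a netrin of basement membranes, had 10.97, 11.2 and 18.1 CPM in Cre-positive against 9.14, 10.7 and 10.96 CPM in Cre-negative libraries. Its values were higher by little in Cre-positive replicates 1 and 2 and by more in replicate 3 (log2 fold change 0.38 ± 0.21 SE). Ntn1 had 9.83, 1.73 and 2.52 CPM in Cre-positive against 3.61, 6.12 and 9.70 CPM in Cre-negative libraries, a spread of 5.7 times among Cre-positive libraries.

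For 11 of the 50 tested guidance genes replicate 1 was the highest Cre-positive library and replicate 3 the highest Cre-negative one. These were Slit2, Slit3, Ntn1, Epha3, Epha7, Nrp1, Efnb3, Plxnd1, Sema3a, Ephb2 and Ephb4. The share of all tested genes with this order was not counted, so the order cannot be called particular to guidance genes. In Ephb4 the spread was small, at 1.04 times among Cre-positive and 1.1 times among Cre-negative libraries. Epha3 had 4.06, 0.443 and 0.143 CPM in Cre-positive against 0.201, 0.370 and 2.82 CPM in Cre-negative libraries, the widest spread of the 50. Efnb3 had 6.05, 2.35 and 2.42 CPM in Cre-positive against 3.01, 4.11 and 6.70 CPM in Cre-negative libraries. Nrp1, the receptor partner of Sema3a that is also common in blood vessels, had 15.7, 8.14 and 8.17 CPM in Cre-positive against 8.30, 7.84 and 10.6 CPM in Cre-negative libraries.

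The summed fibroblast and endothelial markers were highest in the same 2 libraries. The guidance genes above were listed by that order, so the match follows from the choice and is not a result. Those of muscle, pericyte and blood were highest in Cre-negative replicate 3 (122 CPM). Among Cre-positive libraries they were highest in replicate 3, with 56.6 CPM against 54.2 CPM in replicate 1. The summed level of 8 fibroblast markers was 1474, 274 and 312 CPM in Cre-positive against 301, 382 and 930 CPM in Cre-negative libraries, with Col3a1, a collagen gene, the most abundant and no marker at 0. Dcn, a proteoglycan gene of that list, was an exception, with 126, 114 and 136 CPM in Cre-positive against 100.4, 110.4 and 141 CPM in Cre-negative libraries. Fbln1 of that list varied little, with 101, 96.9 and 84.0 CPM in Cre-positive against 104, 91.9 and 112 CPM in Cre-negative libraries. The summed level of 10 endothelial markers was 37.8, 5.84 and 5.46 CPM in Cre-positive against 6.86, 13.5 and 33.6 CPM in Cre-negative libraries. Egfl7 was the most abundant, and 2 markers, Cldn5 and Emcn, were at 0 counts in a library. Their part in the values of these guidance genes was not tested. Without Cre-positive replicate 1 the log2 fold change was -0.74 for Slit2, -0.67 for Slit3, -1.61 for Ntn1, -1.93 for Epha3, -0.95 for Efnb3, -0.34 for Plxnd1 and -0.13 for Nrp1, and none passed (adjusted p from 0.130 to 0.693 in edgeR). With all libraries those of Slit2, Epha3, Plxnd1 and Nrp1 were positive, at 0.15, 0.50, 0.10 and 0.27, against the negative values without that library. Without Cre-negative replicate 3 the values moved the other way. They were 0.82 for Slit2, -0.0275 for Slit3, -0.0272 for Ntn1, 2.48 for Epha3, 0.0367 for Efnb3, 0.16 for Plxnd1 and 0.41 for Nrp1. Again none passed (adjusted p from 0.542 to 0.991 in edgeR). These genes were chosen by their 2 highest libraries, so the direction of both shifts was fixed by the choice and is not a result. Sema3a, Epha7, Ephb2 and Ephb4 were chosen in the same way and are not listed here. Slit1 was lowest in replicate 1 among Cre-positive libraries, with 3.50 CPM against 3.58 and 4.04 CPM in replicates 2 and 3. Among Cre-negative libraries it was highest in replicate 3, as those genes were, with 0.602, 0.370 and 0.875 CPM.

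**Figure D5:**
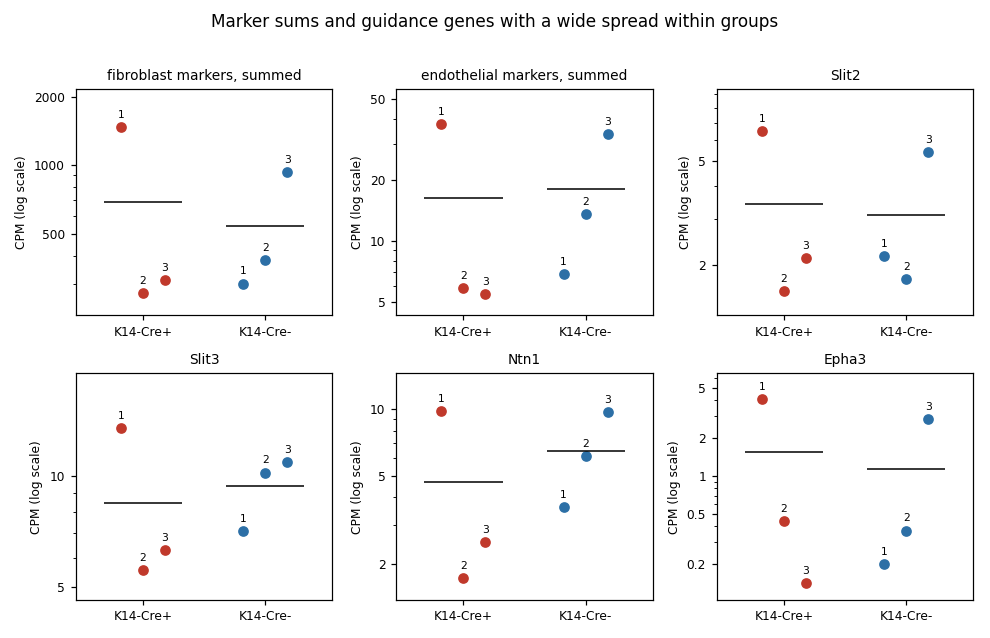
Summed CPM of fibroblast and endothelial markers and CPM of Slit2, Slit3, Ntn1 and Epha3 by library (log axis), Cre-positive on the left, with replicate numbers and the mean as a bar. In all 6 panels replicate 1 is the highest Cre-positive library and replicate 3 the highest Cre-negative one, as with 1474 and 930 CPM for the fibroblast markers. The genes shown were picked from those with this order.

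Beyond the 52 genes, 77 other guidance genes were in the table and 68 were tested, of which 0 passed edgeR, 14 (20.6%) had an unadjusted p under 0.05 and 4 passed DESeq2. Both counts were near the shares over all genes, 18.8% at that unadjusted p and 6.05% in DESeq2. They comprise 26 further ligands and receptors and 51 genes of signal transduction. The median log2 fold change was 0.02 over the 68 tested. Among the ligands and receptors 9 were below the count filter, including the netrin receptor gene Dcc, with 12, 1 and 0 counts in Cre-positive against 2, 1 and 11 counts in Cre-negative libraries. In signal transduction, Evl, an actin regulator of the Ena/VASP family, had 64.7, 67.8 and 59.8 CPM in Cre-positive against 84.7, 83.5 and 87.2 CPM in Cre-negative libraries, lower in all 3 (log2 fold change -0.41 ± 0.07 SE, with adjusted p = 0.0732 in edgeR). Evl shares 18% of its exon length with Degs2 on the opposite strand. Pak1, a kinase that acts downstream of Rac and Cdc42, had 15.6, 14.96 and 13.2 CPM in Cre-positive against 19.2, 19.2 and 18.3 CPM in Cre-negative libraries (log2 fold change -0.37 ± 0.09 SE, with adjusted p = 0.126 in edgeR).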

How the data were processed

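RNA sequencing gave 6 libraries of purified mouse epidermal cells, 3 K14-Cre-positive and 3 K14-Cre-negative. Raw read counts per gene, with the counted exon length of each gene, were deposited by the authors, per the file headers. GSNAP (alignment), featureCounts (counting) and mm10 are named in the submitters' processing notes. Their versions, strandedness and the treatment of shared reads were not given in the sources used here. The labels name a directional library kit, but without the counting setting antisense reads may be counted with a gene. Genes on the opposite strand are named where they share at least 5% of a gene's exon length with a mean of at least 10 counts.

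Low-count genes were dropped with filterByExpr (minimum count 10). Libraries were scaled by TMM, and the 15525 remaining genes were tested by edgeR 4.0.16 in R 4.3.3 (quasi-likelihood, two-sided, without covariates). P-values were adjusted by Benjamini-Hochberg over all of them, at a threshold of 0.05. Log2 fold changes are Cre-positive over Cre-negative. The SE given with them is not an output of edgeR. It was derived as the absolute log2 fold change divided by the square root of the F value of that test. The floor used for a count of 0 is 3 counts, which is 0.0922 to 0.143 CPM and covers counting error only. Symbols were found for 37607 of the 38924 identifiers.

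Alternatives were DESeq2 size factors, total count scaling, DESeq2 1.42.0 (Wald test), limma 3.58.1 (voom), other count filters, a sex covariate taken from Xist and Y-linked counts, and leaving out each library. Y-linked counts exceeded Xist counts in 2 Cre-positive libraries and in 1 Cre-negative library, so the groups were not balanced for sex. The fits were tested on simulated counts in which 200 of 15525 genes changed. There edgeR made 173 calls, 14 of them on unchanged genes. DESeq2 made 207 calls, 41 of them on unchanged genes, and limma-voom made 168, with 11 on unchanged genes. Replicates were numbered in accession order. The 52 genes, the other guidance genes and the marker lists were chosen with earlier results of these data known, so no p-value was adjusted over a list alone. Any of the 52 genes may be named. Of each other guidance list, where none passed, the 2 genes with the smallest unadjusted p are named, and of each marker list the most abundant gene. Dcc, Dcn, Cldn5, Emcn, Cdh19, Cd207, Lyz2, H2-Ab1, Mpeg1 and Cd74 were named after their values were seen. So were Krt15, Itgb4, Sema3g, Fbln1, Cd3e, Cd3g, Cd3d, Nkg7, Lgr5, Lhx2 and Cd34. Ntn3, Trdc and Flg found no match by symbol and are not used here.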

Additional observations from a re-analysis of the deposited data

How the results depend on the processing

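Slit1 kept its direction and its side of the threshold with DESeq2 size factors, total count scaling, DESeq2, limma-voom, other count filters and sex as a covariate. Among the guidance genes DESeq2 called 3 higher and 2 lower, and among the other guidance genes 2 higher and 2 lower. Over all genes edgeR called 63 higher and 17 lower. Those counts were 559 and 288 with DESeq2, 104 and 38 without the filter on low counts, and 34 and 8 with sex as a covariate, and total count scaling gave 27 higher. Without the filter 1 other guidance gene, Robo3, was called. Leaving out each library in turn gave 0 to 288 genes higher and 0 to 134 lower. It gave 0 to 2 guidance genes higher and 0 to 1 lower, and 0 to 1 other guidance genes higher and 0 to 2 lower. The highest of these counts came without Cre-positive replicate 3, and the cause was not tested. The log2 fold change of Slit1 ranged from 2.32 to 2.92 and that of Rnaseh2b from -2.56 to -2.19, and both lost the call in some of these fits, which have fewer samples. Signs turned for the following genes, none of them called. Total count scaling, which moved the median of all genes to -0.118, gave -0.0263 for Sema3c, -0.0769 for Sema4a, -0.0358 for Plxna1, -0.0674 for Plxnb2 and -0.11 for Efnb2. Size factors of DESeq2 gave 0.00485 for Plxna2 and 0.000738 for Unc5b, and its Wald test 0.00532 and 0.00131. With sex as a covariate the values were -0.0279 for Plxnd1, -0.0105 for Efnb2 and 0.0243 for Unc5b. Leaving out each library gave -0.74 to 0.82 for Slit2, -0.67 to 0.0791 for Slit3, -0.037 to 0.13 for Sema4a, -0.23 to 0.0715 for Sema4b, -0.26 to 0.11 for Sema7a, -0.0572 to 0.0393 for Plxna2, -0.28 to 0.0179 for Plxnb1, -0.00948 to 0.0816 for Plxnb2, -0.34 to 0.31 for Plxnd1, -0.13 to 0.43 for Nrp1, -0.14 to 0.0164 for Efna1, -0.0817 to 0.0417 for Efna4, -0.0219 to 0.0544 for Efnb2, -0.95 to 0.0367 for Efnb3, -1.93 to 2.48 for Epha3, -0.15 to 0.0613 for Epha4 and -0.23 to 0.11 for Unc5b. No paired analysis was possible because the labels give no replicate numbers shared between the groups. Sema4f and Plxnb3 had too few counts to be tested.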

Other observations

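Marker lists of other cells, given as summed CPM per library, complete the description of the purified cells. The 6 T cell markers, led by Thy1, summed to 35.6, 26.8 and 37.1 CPM in Cre-positive and to 43.6, 37.6 and 40.6 CPM in Cre-negative libraries. Thy1 overlapped, but 4 of the 6 were lower without overlap, as 13.8% of all genes were. They were Cd3e, Cd3g, Cd3d and Nkg7, with log2 fold changes of -0.78, -1.11, -1.33 and -1.17. None of the 6 passed edgeR, and DESeq2 called 3 lower, as it did 2.06% of all genes with an adjusted p. The 8 myeloid and Langerhans cell markers, led by Csf1r, summed to 124, 114 and 92.4 CPM in Cre-positive and to 144, 119 and 113 CPM in Cre-negative libraries, which overlapped, and Cd207 was at 0 counts in Cre-positive replicate 3. Within that list 1 marker rose and 1 fell in edgeR, which called 0.406% of all genes higher and 0.110% lower. Lyz2, a lysozyme gene, had 16.6, 11.9 and 15.9 CPM in Cre-positive and 5.01, 6.16 and 6.55 CPM in Cre-negative libraries (adjusted p = 0.0368 in edgeR). H2-Ab1, an antigen presentation gene, had 3.50, 4.60 and 2.33 CPM in Cre-positive and 24.1, 13.1 and 14.1 CPM in Cre-negative libraries (adjusted p = 0.0400 in edgeR). Mpeg1 did not pass, with 34.2, 25.7 and 22.5 CPM in Cre-positive and 11.2, 15.7 and 14.4 CPM in Cre-negative libraries (adjusted p = 0.0783 in edgeR). Cd74 did not pass either, with 8.08, 10.05 and 3.42 CPM in Cre-positive and 53.4, 31.3 and 31.4 CPM in Cre-negative libraries (adjusted p = 0.0572 in edgeR). The 9 muscle, pericyte and blood markers, led by Hbb-bs, summed to 54.2, 35.8 and 56.6 CPM in Cre-positive and to 38.9, 67.0 and 122 CPM in Cre-negative libraries. Krt5 and Krt10 led the basal and the suprabasal keratinocyte lists.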
